A study of Mus musculus with 9 samples.

Results

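The amygdala was compared with the hypothalamus of the same mice, on 3 amygdala arrays and 3 hypothalamus arrays out of the 9 arrays of the study. All arrays of these regions were taken, and each amygdala array was paired with the hypothalamus array of the same diet. The mice were wild-type male C57BL/6J, aged 8 to 9 weeks. The RFR mice alternated between a period of fasting and a period of free refeeding, the CR mice were given less food, set from what RFR mice ate, and the AD mice fed ad libitum. On day 8 the RNA of 4 mice of a diet was pooled for each region, and 400 ng was labelled for 1 single-colour array. Both tissues were cut from coronal slices taken 1.5 to 2.5 mm behind bregma, a skull landmark. The labels put amygdala and hypothalamus in the same slice range, so neighbouring tissue was available to either dissection. A region therefore has 3 arrays that differ in diet, and the diets served as its repeats. The fit holds a diet term, so p-values rest on the spread of region differences from diet to diet. The spread between mice of a diet was not measured, since each region and diet has 1 array. The remaining 3 arrays hold prefrontal cortex from the same mice. They shared the estimate of the spread, and their levels are given where they show where a gene stands.

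The amygdala is a group of nuclei in the temporal part of the forebrain. It is known for fear learning and for attaching value to sensory cues, and it combines cortex-like nuclei of glutamatergic projection neurons with striatum-like nuclei of GABAergic neurons. The hypothalamus lies below the thalamus, at the base of the brain. It is known for peptide-secreting neurons that control feeding, water balance, body temperature, arousal and the pituitary gland. Both arise from different parts of the embryonic forebrain, the amygdala mainly from the telencephalon, and each keeps some transcription factors of its origin in adult neurons.

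The promoters of 4 genes are printed, chosen from those with the largest differences or bounds. Others with large values, such as Slc17a7 and Pmch, are not printed. Cyp26b1 encodes an enzyme that degrades retinoic acid and Neurod2 a transcription factor of telencephalic glutamatergic neurons, and both were higher in amygdala. Hcrt encodes the orexin precursor and Hmx3 a homeobox factor, and both were higher in hypothalamus. Each sequence holds the 250 bases before the annotated start, read 5′ to 3′ on the gene's strand, from RefSeq on GRCm38.p6. The windows lie at chr6:84593811-84594060 on the minus strand for Cyp26b1, chr11:98329646-98329895 on the minus strand for Neurod2, chr11:100762932-100763181 on the minus strand for Hcrt and chr7:131542713-131542962 on the plus strand for Hmx3. Capitals mark matches on either strand. The motifs searched were TATAAA, the TATA box, then CCAAT, bound by NF-Y, then CATCTG, an E-box of neuronal bHLH factors, then TGACGTCA, the cAMP response element, and lastly TAATTA, a core of homeodomain sites.
Cyp26b1: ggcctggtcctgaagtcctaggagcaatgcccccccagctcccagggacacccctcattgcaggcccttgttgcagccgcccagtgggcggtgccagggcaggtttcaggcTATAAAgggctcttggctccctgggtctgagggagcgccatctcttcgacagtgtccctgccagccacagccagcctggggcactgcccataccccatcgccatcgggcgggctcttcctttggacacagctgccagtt
Neurod2: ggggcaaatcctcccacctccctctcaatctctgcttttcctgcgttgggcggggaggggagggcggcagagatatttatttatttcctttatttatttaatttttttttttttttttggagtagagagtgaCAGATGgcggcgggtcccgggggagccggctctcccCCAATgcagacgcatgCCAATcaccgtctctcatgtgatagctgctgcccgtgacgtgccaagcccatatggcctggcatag
Hcrt: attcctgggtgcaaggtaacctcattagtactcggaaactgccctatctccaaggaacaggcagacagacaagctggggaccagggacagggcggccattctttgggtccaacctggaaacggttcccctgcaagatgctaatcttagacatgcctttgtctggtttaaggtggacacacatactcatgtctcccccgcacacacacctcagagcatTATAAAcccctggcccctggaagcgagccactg
Hmx3: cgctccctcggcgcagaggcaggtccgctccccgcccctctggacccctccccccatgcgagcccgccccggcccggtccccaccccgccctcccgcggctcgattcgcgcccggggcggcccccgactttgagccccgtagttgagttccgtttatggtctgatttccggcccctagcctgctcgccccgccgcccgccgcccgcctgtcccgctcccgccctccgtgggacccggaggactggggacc

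The motif TATAAA began at position -33 from the start of Hcrt and at position -139 from that of Cyp26b1. Among 27025 RefSeq promoters of 300 bases, 14.2% held this motif. The Neurod2 window held CCAAT at positions -82 and -66, a motif of 37.9% of promoters, and CATCTG, read on the opposite strand, at position -118, a motif of 17.2%. TGACGTCA (1.88% of promoters) and TAATTA (5.31%) were in none of these windows, and Hmx3 held none of the searched motifs. The Hmx3 window held 31 CG dinucleotides, that of Neurod2 11, that of Cyp26b1 7 and that of Hcrt 5, against a median of 6 over all promoters. These matches describe the letters alone.

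Each array had 43379 noncontrol spots, and 25958 to 30199 of them passed the scanner software's test for being well above background. Levels are the log2 processed signal relative to the array's 75th percentile, so a level of 0 equals that percentile, and a difference of 1 is a 2-fold difference. The AD pair of amygdala and hypothalamus shared slide 1 and the RFR pair shared slide 2. The CR amygdala array was alone on slide 3, with its own scan, while CR hypothalamus lay on slide 2. Of 15 tested amygdala markers, 12 were called higher in amygdala and none in hypothalamus. Of 22 tested hypothalamic transcription factors, 2 were called higher in amygdala and 14 in hypothalamus. Among members well above background on all 6 arrays it was 11 of 14 markers for amygdala and 9 of 16 factors for hypothalamus. The shares over all genes tested were 13.5% for amygdala and 15.9% for hypothalamus, and every list count below is to be read against them. Some factors, such as Hmx3, entered the test through the hypothalamus arrays alone. The lists were chosen with earlier results of these data known, so these counts are no independent check of the labels. In bulk tissue, fewer cells of a type and less RNA per cell cannot be told apart.

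Of 12619 genes tested, 3717 (29.5%) passed an adjusted p of 0.05 in the limma fit. Of these, 1709 were higher in amygdala (13.5% of genes tested) and 2008 were higher in hypothalamus (15.9%). Fold sizes were counted only among called genes well above background on all 6 arrays, 1431 higher in amygdala and 1849 higher in hypothalamus. Of these, 480 higher in amygdala and 369 higher in hypothalamus differed at least 2-fold, 107 and 90 at least 4-fold, 27 and 30 at least 8-fold, and 7 and 10 at least 16-fold. The difference had the same sign in all 3 diets for 1704 of the genes called higher in amygdala and for 2007 of those called higher in hypothalamus. The values of both regions did not overlap for 5047 of the genes tested (40%). The median difference of all genes was -0.06. Within a slide, it was -0.04 for the AD pair and -0.02 for the RFR pair. With the RFR pool left out the number of calls was 1429, and with the CR pool left out 2240. Without hypothalamus AD, RFR or CR it was 2179, 2429 or 2475.

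**Figure D1:**
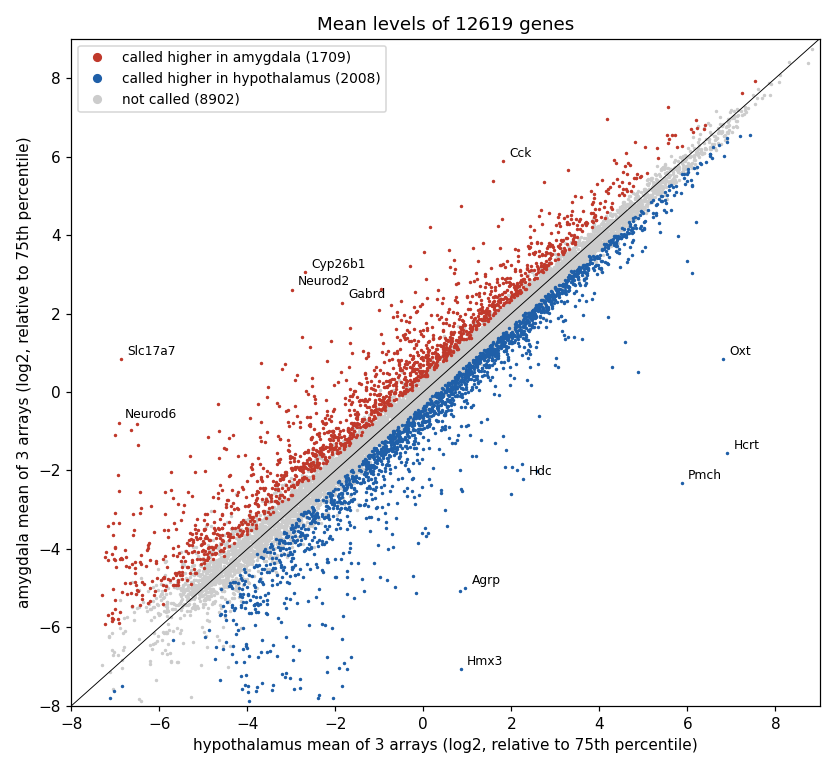
Mean level of each of 12619 genes in amygdala (vertical axis) and hypothalamus (horizontal axis), both log2 relative to the array's 75th percentile, with 3 arrays per mean. The 1709 genes called higher in amygdala lie above the diagonal and the 2008 called higher in hypothalamus below it, with Hcrt and Pmch farthest below.

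The largest difference in favour of amygdala among genes measured in both regions was that of Cyp26b1. Its level was 3.40 (AD), 2.87 (RFR) and 2.89 (CR) in amygdala, against -2.80, -2.73 and -2.55 in hypothalamus. The amygdala arrays lay far above the hypothalamus arrays in every diet, by 5.75 (SE 0.29, adjusted p = 3.92e-05, 53.6-fold). Prefrontal cortex was intermediate, at 0.13, -0.25 and -1.23. Neurod2 had levels of 3.04, 2.72 and 2.05 in amygdala and -2.79, -2.86 and -3.33 in hypothalamus. Again no array of one region came near the other, and the difference was 5.60 (SE 0.12, adjusted p = 5.69e-06, 48.4-fold). Prefrontal cortex was highest for this gene, at 3.79 to 4.24.

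Cck encodes cholecystokinin, a peptide of cortical and amygdalar projection neurons and interneurons. Its level was 6.22, 5.82 and 5.61 in amygdala, against 1.67, 1.85 and 1.93 in hypothalamus, a difference of 4.07 (SE 0.17, adjusted p = 2.05e-05, 16.7-fold). Gabrd encodes the delta subunit of extrasynaptic GABA-A receptors, which carry tonic inhibition. It averaged 2.27 ± 0.38 in amygdala and -1.84 ± 0.17 in hypothalamus (SD, n = 3 each), a 17.3-fold difference (4.11, SE 0.17, adjusted p = 2.13e-05). The other genes of the top 12 were Krt9 (21.5-fold), the myosin Myo5b (17.7-fold), Arpp21, a cAMP-regulated phosphoprotein (16.5-fold), the inward rectifier channel Kcnj4 (14.7-fold), the anion transporter Slc26a4 (14.5-fold), Igfbp6, a binding protein of insulin-like growth factors (14.1-fold), Itpka, an inositol trisphosphate kinase of dendritic spines (13.9-fold), and Dkkl1 (13.2-fold). For Igfbp6 the 3 hypothalamus arrays were uneven, at -3.84 (AD), -3.53 (RFR) and -2.29 (CR), against 0.75, 0.64 and 0.40 in amygdala.

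Some genes, among them the glutamatergic neuron genes Slc17a7 and Neurod6, were bright in amygdala and not well above background on any hypothalamus array. For these only a bound can be given. Slc17a7 encodes the vesicular glutamate transporter of cortical neurons, VGLUT1. Its level was 0.92, 0.64 and 0.93 in amygdala, while hypothalamus gave -7.26, -7.10 and -6.25, and amygdala was at least 57-fold higher (adjusted p = 6.18e-06). These bounds set the mean of the bright region against the higher of the dim probe's own signal and the lowest signal well above background on each dim array. Neurod6, a transcription factor of pallial projection neurons, was at least 18.6-fold higher in amygdala, with levels of -0.63, -0.84 and -0.88 against -6.85, -6.69 and -7.22. The other largest bounds were those of Krt12 (at least 18.3-fold), the potassium channel Kcnh3 (at least 16.4-fold), the angiotensin-(1-7) receptor Mas1 (at least 14.9-fold), Dtl (at least 12.5-fold), the cortical factor Tbr1 (at least 10-fold) and Otop2 (at least 7.78-fold). In all, 138 genes called higher in amygdala were not well above background on any hypothalamus array.

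Among genes measured on all 6 arrays, the peptides Hcrt and Pmch differed most in favour of hypothalamus. Hcrt encodes the orexins, which promote wakefulness and feeding and are made in the lateral hypothalamus. Its level was -2.14 (AD), -0.88 (RFR) and -1.67 (CR) in amygdala, against 6.92, 6.62 and 7.19 in hypothalamus. The hypothalamus arrays lay close together while the amygdala arrays spread over more than a log2 unit, and the difference was -8.47 (SE 0.30, adjusted p = 1.15e-05), 355-fold higher in hypothalamus. Pmch encodes melanin-concentrating hormone, an appetite-stimulating peptide of the same area. It had levels of -3.43, -1.61 and -1.93 in amygdala and of 5.74, 5.61 and 6.25 in hypothalamus, a 292-fold difference (-8.19, SE 0.35, adjusted p = 2.16e-05). For both peptides RFR amygdala was the highest of the amygdala arrays.

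Oxt encodes oxytocin, a peptide of magnocellular neurons that is released from the posterior pituitary. Its level was 1.12, 1.15 and 0.22 in amygdala and 6.69, 6.87 and 6.90 in hypothalamus, 63.5-fold higher in hypothalamus (-5.99, SE 0.28, adjusted p = 3.26e-05). Amygdala was in turn well above prefrontal cortex, which had Oxt levels of -3.00, -3.14 and -2.57. Asb4 was at -1.99, -2.05 and -1.96 in amygdala against 2.65, 2.51 and 2.57 in hypothalamus (23.9-fold). Sytl4, which encodes the vesicle protein granuphilin, was 24.2-fold higher in hypothalamus, and Cbln1, a secreted synapse organiser, 20.9-fold. The others were the histamine-synthesising enzyme Hdc (22.4-fold), the homeobox factor Lhx1 (20.0-fold), growth hormone releasing hormone Ghrh (17.2-fold), thyrotropin releasing hormone Trh (17.0-fold), the vesicular monoamine transporter Slc18a2 (15.5-fold) and the dynein light chain Dynlrb2 (15.2-fold).

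Where amygdala was not well above background on any array, Hmx3 had the largest bound. Its level was -7.52, -6.92 and -6.75 in amygdala and 0.94, 0.77 and 0.84 in hypothalamus, at least 87.2-fold higher in hypothalamus. It was not well above background in prefrontal cortex either. The next bounds were those of Crygn (at least 15.4-fold), Zfp474 (14.4-fold), Ttll6 (13.9-fold), the orphan nuclear receptor Nr0b1 (13.4-fold), the homeobox gene Gsc (13.3-fold), Fam216b (12.7-fold) and the pituitary and hindlimb factor Pitx1 (11.6-fold), each a lower limit. These 8 genes met the filter, well above background on at least 3 of 9 arrays, through the hypothalamus arrays alone. Their calls are therefore no separate support for the bounds. The same holds for Nmu, Six6, Onecut3, Fndc3c1 and Tshb below, and through the amygdala arrays alone for Gsx2 and Cyp26a1. Here 59 genes called higher in hypothalamus were not well above background on any amygdala array. Spots well above background made 59.8% to 62.2% of the hypothalamus arrays and 63.8% to 69.6% of the amygdala arrays. The 59 genes and the 138 of the other direction are therefore not counted at equal detection.

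**Figure D2:**
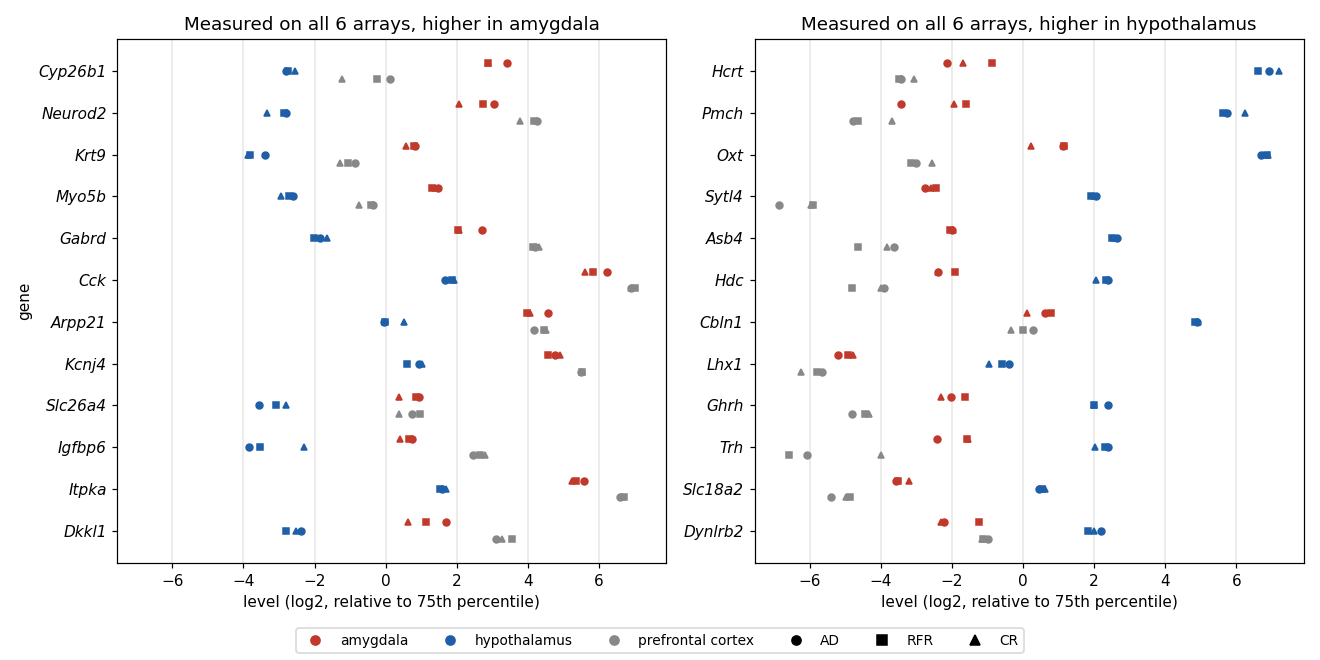
Level (log2, relative to the array's 75th percentile) on each array of the 12 genes with the largest difference in each direction among genes well above background on all 6 arrays, in amygdala, hypothalamus and prefrontal cortex, with symbols for the 3 diets. Left, Cyp26b1 leads with amygdala at 2.87 to 3.40 and hypothalamus at -2.80 to -2.55; right, Hcrt leads with amygdala at -2.14 to -0.88 and hypothalamus at 6.62 to 7.19.

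Prefrontal cortex took different positions on the 2 sides. Among the 107 genes measured on all 6 arrays and at least 4-fold higher in amygdala, the prefrontal cortex mean was above both regions for 66 (61.7%), between them for 41 (38.3%) and below both for none. Of the 90 such genes at least 4-fold higher in hypothalamus, prefrontal cortex was below both regions for 80 (88.9%), as for Oxt, between them for 10 (11.1%) and above both for none. Of the 90, 28 were not well above background on any prefrontal cortex array, against none of the 107. Avp, the gene of vasopressin, had the order of Oxt: 2.87, 3.31 and 2.94 in amygdala, 6.06, 6.03 and 6.21 in hypothalamus, and -4.09, -3.73 and -3.66 in prefrontal cortex. This order was not tested.

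Peptides of feeding control were mostly higher in hypothalamus. Of 17 listed, 14 had a probe and 11 were tested: 2 were called higher in amygdala and 8 in hypothalamus, with a median difference of -3.31 against -0.06 over all genes. The median was -2.28 with dim values raised to the floor, the lowest signal well above background of each array. The count for amygdala was 1 without amygdala AD, amygdala RFR, hypothalamus AD, hypothalamus RFR, the AD pool or the RFR pool, 3 without amygdala CR, and 0 without the diet term. Agrp, the appetite-stimulating melanocortin antagonist of the arcuate nucleus, had levels of -4.87, -4.94 and -5.19 in amygdala and 0.76, 1.13 and 0.98 in hypothalamus, 62.1-fold higher in hypothalamus (adjusted p = 1.17e-05). It was well above background on 2 of the 3 amygdala arrays. Pomc, the precursor of the satiety peptide alpha-MSH, was less even: 0.29, 1.84 and -0.24 in amygdala against 4.88, 4.07 and 3.92 in hypothalamus, a 12.6-fold difference (adjusted p = 0.000984). Gal (9.92-fold), Cartpt (4.87-fold) and Nmb, with a difference of -0.92, were also called higher in hypothalamus, and Nmu was at least 3.06-fold higher.

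Npy, the appetite-stimulating partner of Agrp, was the tested feeding peptide that was not called. Its level was 2.25, 2.02 and 1.75 in amygdala and 1.50, 1.63 and 1.84 in hypothalamus (0.35, SE 0.16, adjusted p = 0.149). The regions overlapped, and CR was the diet in which hypothalamus was above amygdala. Outside the hypothalamus, NPY is a peptide of many forebrain interneurons. Ucn3, a ligand of the type 2 corticotropin releasing factor receptor, was higher in amygdala, with -2.78, -1.97 and -2.30 against -3.74, -2.95 and -3.22 in hypothalamus (0.95, SE 0.15, adjusted p = 0.00369). Bdnf, a neurotrophin that restrains feeding in the hypothalamus, was 1.54-fold higher in amygdala (adjusted p = 0.0459).

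Releasing hormones and neurohypophysial peptides carried the same direction. Of 8 tested, 1, Sst, was called higher in amygdala and 7 in hypothalamus, with a median difference of -3.57. The call of Sst was lost without amygdala RFR, hypothalamus AD, hypothalamus RFR, the AD pool or the RFR pool, and with the 6 arrays alone. Gnrh1, which encodes the hormone at the head of the reproductive axis, was 21.9-fold higher in hypothalamus: -5.05, -4.30 and -4.75 in amygdala against 0.02, -0.31 and -0.44 (2 of 3 amygdala arrays well above background). Avp differed less than Oxt, by -3.06 (8.36-fold, adjusted p = 2.95e-05), with amygdala at about 3 on all arrays. Kiss1 (-1.09) and Tac2 (-0.93), peptides of neurons that drive Gnrh1 neurons, had smaller differences, and the Kiss1 level in prefrontal cortex, -1.13 to -0.39, was above those in amygdala (-3.35 to -2.70). Sst, the somatostatin gene, had 5.51, 5.22 and 5.25 in amygdala and 4.43, 4.63 and 4.96 in hypothalamus (1.57-fold, adjusted p = 0.024).

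Other neuropeptides went both ways: of 16 tested, 7 were called higher in amygdala and 5 in hypothalamus. Without the RFR pool the count for hypothalamus was 3. Besides Cck, amygdala was higher for Cort, the cortistatin gene of cortical interneurons (9.37-fold, adjusted p = 4.59e-05), for Crhbp, the binding protein of corticotropin releasing hormone (2.48-fold), and for Penk, the enkephalin precursor (1.90-fold). Ucn, the urocortin gene, had -1.93, -3.64 and -3.66 in amygdala and was at least 3.79-fold higher than in hypothalamus. Its AD amygdala array was far above the RFR and CR ones. Calca, the gene of calcitonin and CGRP, was 5.17-fold higher in hypothalamus, and Adcyap1 (PACAP), Pdyn (dynorphin), Pnoc (nociceptin) and Tac1 (substance P) were 1.94-fold, 1.90-fold, 1.81-fold and 1.65-fold higher there. Among 14 tested genes of peptide processing and granules, none was called higher in amygdala and 4 in hypothalamus, led by the prohormone convertase Pcsk1 (3.17-fold) and the granin Scg2 (2.01-fold). The share called in either direction was near that over all genes (29.5%). Without the CR pool or with slide as a fixed term, 2 were called higher in hypothalamus.

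Genes of monoamine synthesis and transport were mostly higher in hypothalamus: of 11 tested, none was called higher in amygdala and 8 in hypothalamus, with a median difference of -2.15 (-1.22 with normexp background correction, -0.69 with 15 genes tested when dim genes stayed in). Hdc, which makes histamine in the tuberomammillary nucleus, had -2.38, -1.90 and -2.40 in amygdala and 2.39, 2.34 and 2.04 in hypothalamus. Th, the rate-limiting enzyme of dopamine and noradrenaline synthesis, had -2.73, -2.56 and -2.20 in amygdala against 0.51, 0.29 and 0.41 in hypothalamus, 7.48-fold higher in hypothalamus (adjusted p = 8.77e-05). The dopamine transporter Slc6a3 (4.82-fold), Gch1, which makes the cofactor of these enzymes (4.49-fold), and the decarboxylase Ddc (4.42-fold) followed. The values of both regions did not overlap for any of these genes, as for 40% of all genes tested.

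**Figure D3:**
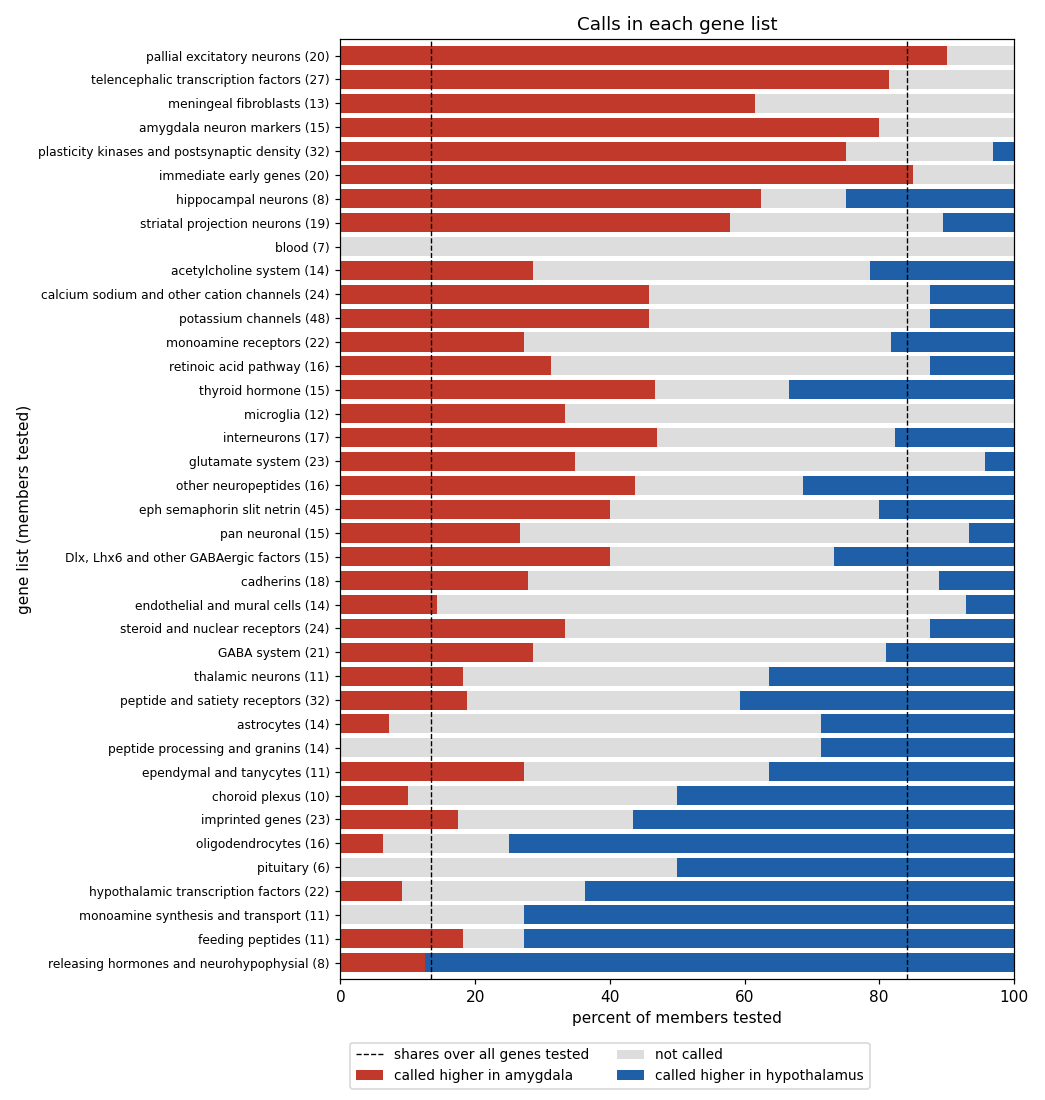
Share of the tested members of each gene list called higher in amygdala (left), not called (middle) and called higher in hypothalamus (right), in percent, with the number tested in parentheses. Dashed lines give the shares over all genes tested, 13.5% for amygdala and 15.9% for hypothalamus. The lists of releasing hormones, feeding peptides, monoamine synthesis and hypothalamic factors lie at the bottom and pallial excitatory genes at the top.

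Most listed transcription factors of the telencephalon were called higher in amygdala, and 14 of 22 tested factors of the hypothalamus higher in hypothalamus. Of 27 tested telencephalic factors, 22 were called higher in amygdala and none in hypothalamus, with a median difference of 1.69 and a range from -0.67 to 6.14. Without amygdala AD, 23 were called higher in amygdala and 2 in hypothalamus. Emx2, a cortical homeobox gene, was at least 5.49-fold higher in amygdala, and Mef2c, an activity-regulated factor of excitatory neurons, was 11.5-fold higher (adjusted p = 9.53e-06). Bcl11b was 7.73-fold and Nr4a2 4.48-fold higher in amygdala. Emx1, Id2, Cux1 and Rorb did not pass the test.

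Of 32 listed hypothalamic factors, 22 were tested, and their median difference was -2.02. It was -1.64 with dim values raised to the floor, -1.27 with normexp and -1.19 among genes well above background on all 6 arrays. Nkx2-1, required to form the ventral hypothalamus, was 10.3-fold higher in hypothalamus, with -5.16, -4.77 and -4.36 in amygdala against -1.55, -1.56 and -1.07 (adjusted p = 4.30e-05). Isl1 had -2.63, -2.65 and -2.11 in amygdala and 1.02, 0.82 and 0.73 in hypothalamus, a 9.99-fold difference. Six6, a factor of the eye field and suprachiasmatic area, and Onecut3 were at least 6.93-fold and at least 6.34-fold higher in hypothalamus. The 2 members called higher in amygdala were Lhx9 (0.97) and Hopx (1.06), and 6 did not pass. The count for amygdala was 1 without amygdala RFR, hypothalamus AD or hypothalamus RFR and 0 without the RFR pool. With genes required to be well above background on all 6 arrays, 9 of the listed factors were called higher in hypothalamus, since genes dim in amygdala then leave the test.

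Factors of GABAergic lineages were split, with 6 of 15 tested called higher in amygdala and 4 in hypothalamus. Meis2 (6.20-fold, adjusted p = 0.00028), Meis1 (difference 1.80) and Foxp2 (2.90-fold), which mark striatum-like neurons among others, were higher in amygdala, and Gsx2 was at least 1.49-fold higher there, with hypothalamus not well above background on any array. Dlx1 had -0.28, -0.28 and -0.38 in amygdala and 0.51, 0.66 and 0.92 in hypothalamus, 2.01-fold higher in hypothalamus, and Zic1 was 3.67-fold higher there. Dlx5 (0.20) and Foxp1 (0.35) did not pass the test.

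Markers of pallial and striatal neurons were mostly higher in amygdala. Of 20 tested markers of pallial excitatory neurons, 18 were called higher in amygdala and none in hypothalamus, with a median difference of 2.71. The summed level of the list was 8.76 (AD), 8.44 (RFR) and 8.32 (CR) in amygdala, 6.22, 6.15 and 6.25 in hypothalamus, and 9.33, 9.38 and 9.29 in prefrontal cortex, in log2 of the summed signal. Slc30a3, the synaptic zinc transporter, was called higher in amygdala (adjusted p = 2.06e-05), but hypothalamus was well above background on 1 of 3 arrays, so no fold is given. Ptk2b, a calcium-activated kinase, was 12.1-fold and Nrgn, the calmodulin-binding neurogranin, 6.86-fold higher in amygdala. Camk2a, the alpha subunit of calcium/calmodulin-dependent kinase, had 6.06, 5.26 and 5.61 in amygdala and 3.21, 3.32 and 3.30 in hypothalamus (5.17-fold, adjusted p = 0.000198). Its 2 probes disagreed, and with their mean the difference of Camk2a was 0.30, which did not pass.

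Amygdala markers had a median difference of 1.54. Rspo2, a Wnt agonist expressed in basolateral amygdala neurons, had 0.26, -0.04 and 0.18 in amygdala and -3.81, -3.79 and -3.00 in hypothalamus (12.7-fold, adjusted p = 4.28e-05). Its level in prefrontal cortex was above that in amygdala, at 0.66, 0.88 and 0.92. The marker of the lateral central nucleus, Prkcd, did not pass: -0.95, -0.28 and -0.21 in amygdala against -1.05, -1.02 and -0.87 (0.50, SE 0.17, adjusted p = 0.0638). Dcn (0.41) and Sema5a (0.01) did not pass either. Of 19 tested genes of striatal projection neurons, 11 were called higher in amygdala and 2 in hypothalamus, with a median difference of 0.67, and without the RFR pool 7 were called higher in amygdala and 0 in hypothalamus. Leaving out amygdala AD, amygdala RFR, any 1 hypothalamus array or the CR pool left 1 called higher in hypothalamus. Drd1, the D1 dopamine receptor, had 0.24, -0.22 and 0.07 in amygdala and -2.74, -2.41 and -2.89 in hypothalamus (6.54-fold). Drd2 had -1.91, -1.60 and -0.74 in amygdala and -0.74, -0.92 and -1.07 in hypothalamus and was not called (adjusted p = 0.280). The regions overlapped for Drd2, and CR amygdala was its highest amygdala array.

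Among 17 tested interneuron genes, 8 were called higher in amygdala and 3 in hypothalamus, and with hypothalamus AD, hypothalamus RFR or the RFR pool left out 5 were called higher in amygdala. Hypothalamus held none without the RFR pool. Htr3a, the ion-channel serotonin receptor of one interneuron class, was 3.02-fold higher in amygdala, and Calb2, the calretinin gene, 3.71-fold higher in hypothalamus. Pvalb (0.18) and Vip (0.24) did not pass. Genes expressed by neurons at large differed less: of 15 tested, 4 were called higher in amygdala and 1 in hypothalamus, with a median difference of 0.22. Their share called in either direction lay near the 29.5% over all genes. Amygdala held 2 without the CR pool, and the call for hypothalamus was lost without amygdala RFR, amygdala CR, hypothalamus RFR, the RFR pool or the CR pool. Rbfox3, the NeuN gene, had 3.65, 3.60 and 3.82 in amygdala and 2.54, 2.50 and 2.25 in hypothalamus (2.39-fold, adjusted p = 0.000768), while Stmn2 (0.01), Uchl1 (-0.04) and Map2 (0.27) did not pass.

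Of 21 tested GABA genes, 6 were called higher in amygdala and 4 in hypothalamus. The share for hypothalamus lay near the 15.9% over all genes tested. Without the RFR pool 3 were called higher in amygdala. The synthetic enzymes Gad1 (0.29, adjusted p = 0.207) and Gad2 (-0.65, adjusted p = 0.0544) and the vesicular transporter Slc32a1 (-0.16) did not pass. Gabra4 was 2.72-fold higher in amygdala. The theta subunit Gabrq, with -6.57, -5.32 and -4.61 in amygdala and -2.91, -3.17 and -3.28 in hypothalamus, was called higher in hypothalamus (adjusted p = 0.0072). Gabrq was well above background on 1 of 3 amygdala arrays, so no fold is given. The glial Slc6a11 (GAT3) was 4.96-fold higher in hypothalamus (adjusted p = 0.000161), and Slc6a13 (GAT2), a gene of the meninges, was 4.26-fold higher in amygdala (adjusted p = 0.00379).

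Glutamate genes were called higher in amygdala in 8 of 23 tests and in hypothalamus in 1, and without the RFR pool 5 were called higher in amygdala. The call for hypothalamus was lost without the CR pool or the RFR pool. While Slc17a7 separated the regions, Slc17a6, the VGLUT2 gene of subcortical glutamatergic neurons, did not: 2.19, 1.88 and 2.52 in amygdala against 2.41, 2.39 and 2.58 in hypothalamus (-0.26, SE 0.12, adjusted p = 0.147). In prefrontal cortex Slc17a6 was at -1.53 to -0.96. The NMDA receptor subunit Grin2a was at least 1.81-fold higher in amygdala, Grin2b 2.79-fold (adjusted p = 0.0306) and the AMPA receptor subunit Gria3 2.80-fold (adjusted p = 0.000337). Grin1 (0.14) and Gria1 (0.12) did not pass.

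Of 22 tested monoamine receptors, 6 were called higher in amygdala and 4 in hypothalamus, and with the AD pool left out 10 were called higher in amygdala. The count for hypothalamus was 0 without the RFR pool, 1 without any single hypothalamus array, without the AD pool or with the 6 arrays alone, and 2 without amygdala RFR or the CR pool. Beside Drd1 and Htr3a, Htr2c, a serotonin receptor that curbs appetite, was 2.22-fold higher in amygdala (adjusted p = 0.00366), with 1.65, 1.17 and 1.31 against 0.02, 0.13 and 0.52. In the acetylcholine system 4 of 14 tested were called higher in amygdala and 3 in hypothalamus. The muscarinic receptor Chrm1 was at least 1.70-fold higher in amygdala, the nicotinic subunit Chrna7 was called higher there (adjusted p = 0.00222) with hypothalamus well above background on 1 of 3 arrays, and acetylcholinesterase, Ache, was 2.59-fold higher in hypothalamus (adjusted p = 0.000267). Chrna5 was among the 4 although it was not well above background on any of the 6 arrays, so no fold is given. It is 1 of 5 such called genes. With genes required to be well above background on all 6 arrays, none of the 7 left in the list was called higher in amygdala, and with normexp background correction 2 were. Hypothalamus held 1 without the RFR pool.

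Of 32 tested receptors for peptides and satiety signals, 6 were called higher in amygdala and 13 in hypothalamus, and without the RFR pool 8 were called higher in hypothalamus. The cholecystokinin receptors had opposite differences. Cckar, the type found on satiety pathways, had -4.27, -3.77 and -3.68 in amygdala against -0.97, -1.04 and -1.10 in hypothalamus (7.31-fold higher in hypothalamus), and Cckbr had 1.66, 1.49 and 1.28 against -0.34, -0.08 and 0.27 (2.88-fold higher in amygdala, adjusted p = 0.00164). Neither gene's arrays overlapped, which held for 40% of all genes tested. The calcitonin and amylin receptor gene Calcr was 7.64-fold and the vasopressin receptor Avpr1a, well above background on 2 of 3 amygdala arrays, 7.37-fold higher in hypothalamus, whereas Crhr1, a receptor of corticotropin releasing hormone, was 2.84-fold higher in amygdala (adjusted p = 0.000438). Mc4r, the melanocortin receptor through which alpha-MSH and Agrp act on feeding, had -1.86, -1.17 and -1.46 in amygdala and -1.34, -1.66 and -1.81 in hypothalamus and did not pass (0.11, SE 0.20, adjusted p = 0.714).

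In the retinoic acid pathway the largest measured difference was that of the degrading enzyme Cyp26b1. Of 16 tested, 5 were called higher in amygdala and 2 in hypothalamus; without the RFR pool 3 were called higher in amygdala, and with normexp background correction or trended, robust variances 8 were. The count for hypothalamus was 1 without hypothalamus AD, hypothalamus CR or the CR pool and 0 without the RFR pool. Beside Cyp26b1, the related Cyp26a1 was at least 2.80-fold higher in amygdala, with -3.90, -3.20 and -3.44 against -5.95, -5.35 and -6.09. The synthesising enzyme Aldh1a2 was higher in amygdala too, at 0.90, 0.98 and 0.72 against -1.52, -1.93 and -0.49 (4.52-fold, adjusted p = 0.00674), and it is also a meningeal gene. The receptor Rarb was 1.73-fold higher in amygdala (adjusted p = 0.00169) and the binding protein Crabp1 1.90-fold higher in hypothalamus.

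Steroid and nuclear receptors were called higher in amygdala for 8 of 24 tested and in hypothalamus for 3. Leaving out the RFR pool left 4 called higher in amygdala and 0 in hypothalamus, slide as a fixed term left 1 in hypothalamus, and leaving out amygdala AD gave 5 called higher in hypothalamus. The estrogen receptor Esr1 was 1.67-fold higher in hypothalamus (adjusted p = 0.0124), and the glucocorticoid receptor Nr3c1 (-0.08) did not pass. In thyroid hormone signalling, 7 of 15 were called higher in amygdala and 5 in hypothalamus. Crym, a thyroid hormone binding protein, was 11.6-fold higher in amygdala (adjusted p = 1.15e-05), the inactivating deiodinase Dio3 8.30-fold, the activating deiodinase Dio2 4.66-fold and the receptor Thra 1.57-fold. The hypothalamus side held Trh, the pituitary hormone subunits Cga and Tshb, and Pgpep1 and Hr. The count for amygdala was 4 without amygdala RFR, without hypothalamus RFR, with the 6 arrays alone or without the filter on dim genes, and 3 without the RFR pool. The count for hypothalamus was 3 with slide as a fixed term and 2 when all 6 arrays had to be well above background.

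Of 32 tested plasticity kinases and postsynaptic density genes, 24 were called higher in amygdala and 1 in hypothalamus, with a median difference of 1.17. Rasgrp1, which activates Ras in response to calcium and diacylglycerol, had 3.76, 3.37 and 3.76 in amygdala and 0.79, 0.53 and 0.40 in hypothalamus (8.32-fold, adjusted p = 1.85e-05), and the protein kinase C isoform Prkcb was 3.65-fold higher. Homer3 (-0.83) was the gene called higher in hypothalamus, a call lost without any 1 hypothalamus array, the CR pool or the RFR pool, and Dlg4, which encodes PSD-95, did not pass (0.26).

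Immediate early genes, which are induced within minutes of neuronal activity, were called higher in amygdala for 17 of 20 tested and in hypothalamus for none, with a median difference of 0.92. Egr2 had 1.17, 0.77 and 0.40 in amygdala and -2.21, -2.34 and -2.03 in hypothalamus (7.88-fold, adjusted p = 0.000278). Egr4 was 5.81-fold, Arc 5.36-fold, Homer1 3.53-fold, Egr1 2.76-fold and Junb 2.65-fold higher in amygdala. Fos, the gene most used to map activity, did not pass: 0.29, -0.05 and -0.20 in amygdala, against -0.12, -0.05 and 0.19 in hypothalamus (0.01, SE 0.18, adjusted p = 0.969). Without the RFR pool 9 of these genes were called higher in amygdala.

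Ion channels leaned to amygdala. Of 48 tested potassium channel genes, 22 were called higher in amygdala and 6 in hypothalamus, and the counts without the RFR pool were 10 and 1. Without the CR pool 14 were called higher in amygdala. Kcnv1, a silent subunit, and Kcnq5, a subunit of the M-current, were at least 3.74-fold and at least 1.64-fold higher in amygdala, and Kcnf1 was 3.89-fold higher, with 2.35, 2.18 and 2.65 against 0.50, 0.45 and 0.35. Among 24 calcium, sodium and other cation channel genes, 11 were called higher in amygdala and 3 in hypothalamus, and amygdala held 6 without the CR pool and 5 without the RFR pool. Hypothalamus held 1 without the AD pool and 0 without the RFR pool. Cacng3, an AMPA receptor auxiliary subunit, was 3.11-fold higher in amygdala (adjusted p = 5.38e-05).

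Adhesion and guidance genes were mixed. Of 18 tested cadherins and protocadherins, 5 were called higher in amygdala and 2 in hypothalamus. The share for hypothalamus lay below the 15.9% over all genes tested, and that for amygdala above the 13.5%. Amygdala held 3 without hypothalamus AD, hypothalamus RFR or the CR pool, and 2 without the RFR pool. Hypothalamus held 1 without hypothalamus AD, the CR pool or the RFR pool. Pcdh10 was 2.63-fold higher in amygdala. Of 45 tested Eph, ephrin, semaphorin, Slit and netrin genes, 18 were called higher in amygdala and 9 in hypothalamus; hypothalamus held 5 with the 6 arrays alone and 4 without the CR pool, and both counts were lower without the RFR pool, at 10 for amygdala and 3 for hypothalamus. The secreted guidance cues Sema3a (5.95-fold, adjusted p = 0.000192) and Sema3e (5.80-fold, adjusted p = 4.99e-05) led, and the Slit receptor Robo2 was at least 2.68-fold higher in amygdala.

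Imprinted genes, expressed from 1 parental allele, were called higher in amygdala for 4 of 23 tested and in hypothalamus for 13, with a median difference of -0.63. Without the RFR pool 8 were called higher in hypothalamus. Beside Asb4 and Calcr, Dlk1, an inhibitor of differentiation, had -2.17, -1.52 and -1.23 in amygdala and 1.40, 1.15 and 1.01 in hypothalamus (7.11-fold, adjusted p = 0.000293). Peg3, a zinc finger gene, was 1.73-fold higher in hypothalamus (adjusted p = 0.0465), although the CR arrays differed little, at 1.74 in amygdala and 1.80 in hypothalamus. The 4 genes called higher in amygdala were Dio3, Igf2 (3.18-fold), Cdkn1c (1.18 on the log2 scale) and Mest (0.80).

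**Figure D4:**
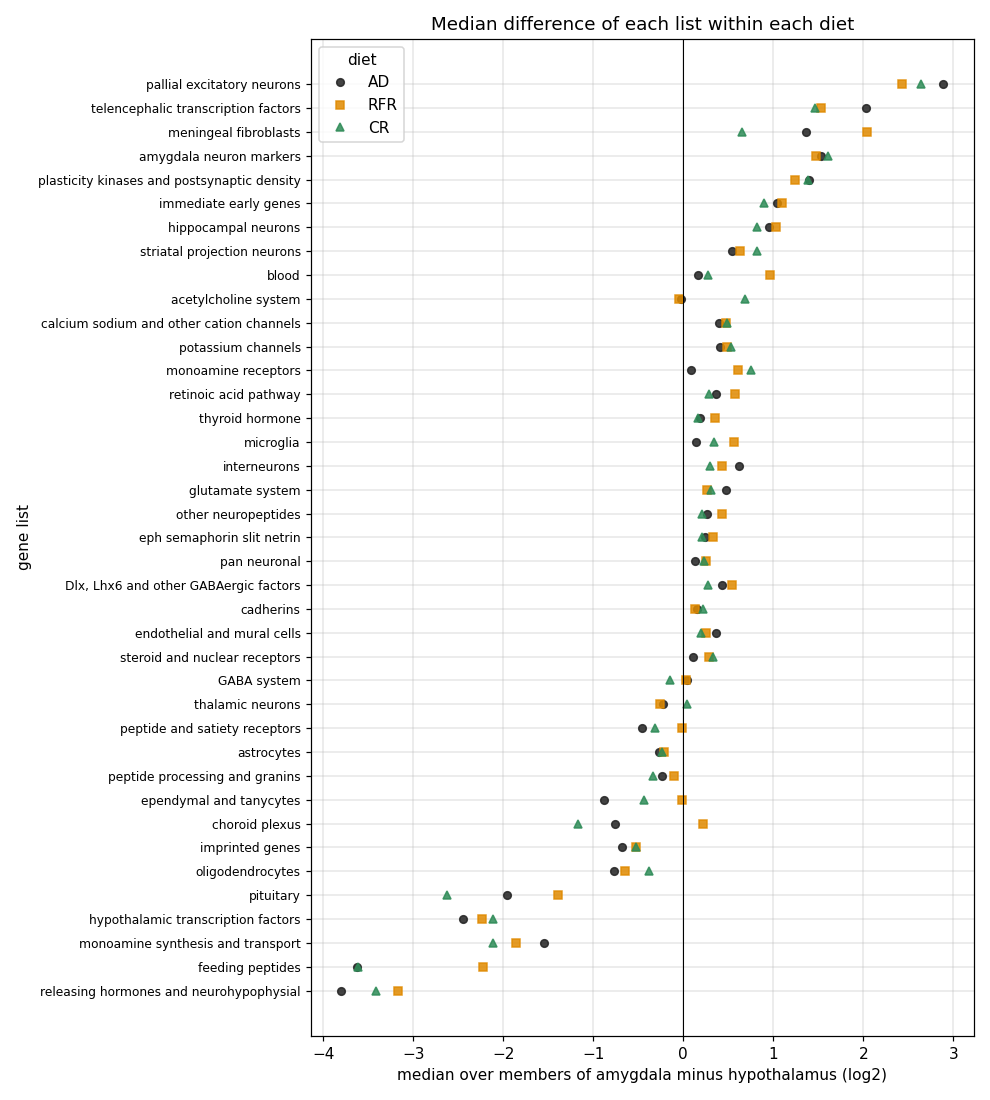
Median over the tested members of each list of the difference amygdala minus hypothalamus (log2) within each diet, 1 array against 1 array. The 3 diets lie close together for pallial excitatory genes (2.43 to 2.89) and farther apart for feeding peptides (-3.63 to -2.23) and choroid plexus (-1.17 to 0.21).

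Among glial lists, that of oligodendrocytes had the highest share of calls. Oligodendrocyte genes were called higher in amygdala for 1 of 16 tested and in hypothalamus for 12, with a median difference of -0.64. Mobp, a myelin protein gene, had 0.27, 0.59 and 0.87 in amygdala and 1.84, 1.41 and 1.67 in hypothalamus (2.09-fold higher in hypothalamus, adjusted p = 0.00572). The precursor gene Cspg4 was the member called higher in amygdala (1.30-fold), a call lost without amygdala RFR, amygdala CR, any 1 hypothalamus array or any 1 pool, and the precursor gene Pdgfra did not pass (0.06). The count for hypothalamus was 5 without amygdala RFR, hypothalamus AD or hypothalamus RFR and with the 6 arrays alone, 7 without the AD pool and 4 without the RFR pool. Of 14 astrocyte genes, 1 was called higher in amygdala and 4 in hypothalamus, a share near that over all genes (29.5%). Among the 4 was Agt, angiotensinogen, with 3.91, 4.29 and 3.74 in amygdala and 5.79, 5.69 and 5.88 in hypothalamus (3.50-fold, adjusted p = 0.000278). Gfap (0.13) and Glul (-0.01) did not pass. The astrocyte count for hypothalamus was 2 without hypothalamus AD, hypothalamus CR or any 1 pool. Microglial genes were called higher in amygdala for 4 of 12, with P2ry12 at 1.48-fold. That count depended on single arrays: it was 7 without amygdala AD, 2 without hypothalamus CR or the CR pool, and 0 without amygdala RFR, hypothalamus AD, hypothalamus RFR or the RFR pool. Of 14 endothelial and mural genes, 2 were called higher in amygdala and 1 in hypothalamus, a share below that over all genes, and no call was left without amygdala RFR, amygdala CR, any 1 hypothalamus array, the RFR pool or the CR pool.

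Of 11 tested ependymal and tanycyte genes, 3 were called higher in amygdala and 4 in hypothalamus. The ciliary regulator Foxj1 was 7.02-fold higher in hypothalamus, with -2.42, -1.70 and -1.81 in amygdala and 0.72, 0.87 and 0.92 in hypothalamus, Rarres2 was 5.44-fold higher, and Fndc3c1 at least 9.23-fold. Dio2, Crym and Lhx2, which the list also holds and which cortical cells express, were called higher in amygdala. Of 10 tested choroid plexus genes, 1 was called higher in amygdala and 5 in hypothalamus, and the summed level of the list was 3.35 (AD), 3.71 (RFR) and 3.31 (CR) in amygdala against 4.18, 4.04 and 4.44 in hypothalamus. The count for hypothalamus was 3 without amygdala AD, amygdala CR, hypothalamus AD, hypothalamus CR or the CR pool, 2 without the AD pool, and 3 with 4 other settings. The call for amygdala was lost without hypothalamus AD, the CR pool or the RFR pool. Ttr, the transthyretin gene that marks this tissue, had -3.47, -1.66 and -3.95 in amygdala and -4.15, -3.39 and -2.69 in hypothalamus and did not pass (adjusted p = 0.654).

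Of 13 tested meningeal fibroblast genes, 8 were called higher in amygdala and none in hypothalamus. Without the RFR pool none of them was called higher in amygdala. The differences of the 13 genes ranged from -1.36, which was not called, to 3.42. The summed level of the list was 7.67 (AD), 7.78 (RFR) and 7.29 (CR) in amygdala, 5.38, 5.72 and 6.56 in hypothalamus, and 7.22, 7.17 and 6.77 in prefrontal cortex. The hypothalamus CR array stood above the other 2 hypothalamus arrays. Slc22a6, an organic anion transporter of the meninges, showed the same, with 1.31 ± 0.25 in amygdala (SD, n = 3) against -3.02, -2.45 and -0.85 in hypothalamus (10.7-fold, adjusted p = 0.00276). Slc13a4 was 6.39-fold, Ogn 6.17-fold and Igf2 3.18-fold higher in amygdala, while the collagen Col1a1 did not pass (1.00, adjusted p = 0.146). The part of attached meninges in the differences of Aldh1a2, Slc6a13, Igf2 and the other listed genes was not tested.

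Genes of the neighbouring hippocampus and thalamus were measured in both dissections. Of 8 tested hippocampal genes, 5 were called higher in amygdala and 2 in hypothalamus, and without the RFR pool 3 in amygdala and 0 in hypothalamus. Hypothalamus held 1 without amygdala RFR, hypothalamus AD, hypothalamus RFR or the AD pool. Spink8, a marker of hippocampal CA1, had -0.21, -0.36 and -0.32 in amygdala and -3.92, -3.48 and -3.86 in hypothalamus (11-fold, adjusted p = 2.06e-05), against -2.10 to -1.92 in prefrontal cortex, and C1ql3 was 7.11-fold higher in amygdala. C1ql2, a dentate granule cell gene, went the other way (4.70-fold higher in hypothalamus, adjusted p = 0.00599). The summed level of the hippocampal list was 5.66, 5.75 and 5.40 in amygdala, 4.53, 4.59 and 4.58 in hypothalamus and 4.28 to 4.63 in prefrontal cortex. Of 11 thalamic genes, 2 were called higher in amygdala, a share near the 13.5% over all genes tested, and 4 in hypothalamus. Tcf7l2 was 2.08-fold higher in hypothalamus. Without the RFR pool 2 were called higher in hypothalamus, and amygdala held 1 without amygdala RFR, hypothalamus AD, hypothalamus RFR or the RFR pool. The summed level of the thalamic list was 3.80, 3.74 and 4.03 in amygdala, 4.32, 4.29 and 4.35 in hypothalamus and 2.42 to 2.64 in prefrontal cortex. Bright members weigh most in such sums, and some are not particular to these tissues. Wfs1, at 4.15 to 4.38 in amygdala, is also a listed amygdala marker. Calb2, at 2.55 to 2.72 in hypothalamus, is also a listed interneuron gene, and the thalamic Slc17a6 is given above among glutamate genes. The part of neighbouring tissue in the region differences was not tested.

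Anterior pituitary genes were called higher in hypothalamus for 3 of 6 tested. Where all 6 arrays had to be well above background, 1 of the list was left to test, and it was not called. Cga, the alpha subunit shared by glycoprotein hormones, had -6.18, -4.10 and -4.91 in amygdala and 0.77, 0.82 and 0.91 in hypothalamus (adjusted p = 7.11e-05). It was well above background on 2 amygdala arrays, and its AD level there lay below the floor, so no fold is given. Tshb was at least 2.80-fold higher in hypothalamus. The pars tuberalis, pituitary tissue on the median eminence, is known to express these genes. The defining hormones Prl and Gh were well above background on the RFR arrays alone, in all regions. Prl had -7.66, -1.43 and -8.19 in amygdala, -7.16, -2.04 and -7.38 in hypothalamus, and -7.38, -1.84 and -7.40 in prefrontal cortex. Of 7 tested blood genes limma called none, with 3 at an unadjusted p under 0.05, while 1 was called under each of 4 alternatives, among them normexp background correction. Hba-a1 had 2.07, 0.76 and 2.05 in amygdala and 1.23, -0.20 and 1.77 in hypothalamus (0.69, adjusted p = 0.0883).

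**Figure D5:**
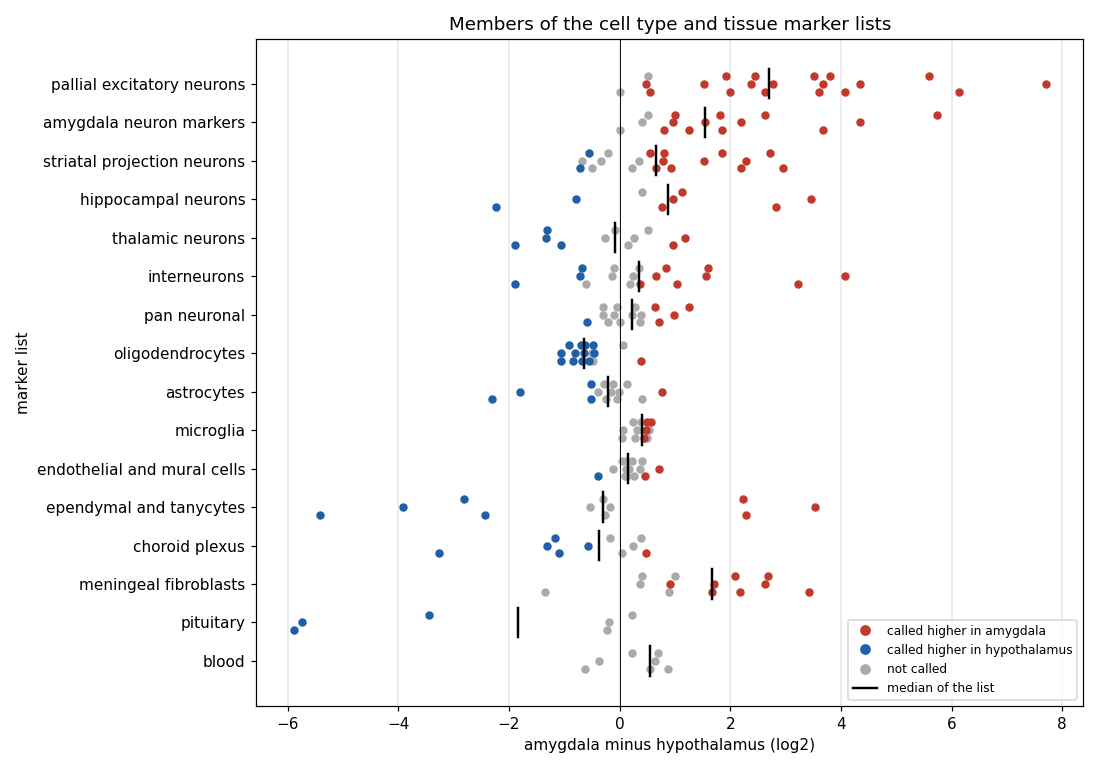
Difference amygdala minus hypothalamus (log2) of each tested member of the cell type and tissue marker lists, coloured by call, with the list median as a bar. The medians of pallial excitatory (2.71) and meningeal genes (1.67) lie to the right and that of oligodendrocyte genes (-0.64) to the left. Ependymal genes spread from -5.41 to 3.54.

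The range of the difference over the 3 diets had a median of 0.48 among the 11534 genes well above background on all 6 arrays. Of these genes, 5279 (45.8%) had differences of opposite signs between diets, among them Npy, Drd2, Mc4r and Fos. The 6 genes with the largest range were Slc4a7, Acvr1b, Rab5b, Cenph, Mxd1 and Ppm1j. Slc4a7, a sodium bicarbonate cotransporter, had 4.95 (AD), 2.09 (RFR) and 1.00 (CR) in amygdala and 1.61, 3.17 and 3.56 in hypothalamus, so AD was the diet in which amygdala was higher. With 1 array for each region and diet, no test of a region difference between diets was possible, and none of the 6 genes was called (adjusted p from 0.172 for Ppm1j to 0.954 for Slc4a7). The differences of Hcrt, Pmch and Agrp were below -5 in every diet, and that of Pomc was -4.60 in AD, -2.23 in RFR and -4.15 in CR.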

How the data were processed

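The authors deposited Agilent Feature Extraction 9.5.1.1 output for single-colour arrays, per the file headers: background-subtracted processed signals, median spot and background signals, all intensities, and quality flags, values of another kind (other than a measurement). In the authors' deposited ratio table each region's AD column is 1 (within 0.001 in 100.0% of values), so it cannot compare regions and was not used further. Log2 processed signals minus each array's 75th percentile were averaged per probe without outlier spots. Of 41174 probes, 22951 matched a RefSeq symbol (GRCm38.p6, names alone) and 18223 did not, giving 16358 genes, each by its brightest probe. Genes well above background on at least 3 of 9 arrays, with a value on at least 6, were fitted with limma 3.58.1 (R 4.3.3), region plus diet, 4 residual degrees of freedom, Benjamini-Hochberg at 0.05. The diet term pairs arrays of the same mouse pool, per the labels; deviations of same-diet amygdala and hypothalamus arrays correlated at -0.087 (AD), 0.185 (RFR) and 0.086 (CR). The number of arrays limits the precision.

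The members, the 39 gene lists and the naming rule were chosen with earlier results of these data known. Named are the 12 largest called differences in each direction with 1 sign in all diets and all 6 arrays well above background, the 8 largest bounds in each direction, up to 5 called members per list and members of lists of at most 20 genes, and the 6 largest ranges over diets; members of longer lists beyond these, and members that did not pass, were named after their values were seen. Alternatives changed background correction (normexp, offset 50, run on median signals because mean signals were not used here), scaling, filter, probes, variances, arrays fitted, the diet term and slides, raised dim values to the floor, and left out each array or pool. The fit was tested on simulated data. Promoters came from a RefSeq table that holds 79.9% of the genes tested, so no comparison of promoters between gene sets was made. Figures used matplotlib 3.10.9 under Python 3.11.15. Some listed genes are not reported here.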

Additional observations from a re-analysis of the deposited data

Results flagged for a closer look

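The 6 genes given here had the widest range over the diets of the difference amygdala minus hypothalamus among genes well above background on all 6 arrays, with opposite signs in the diets. Signs were opposite for 5279 genes of that set, and this was not tested, since each region and diet has 1 array. Slc4a7 had the widest range over the 3 diets, 5.90 log2 units. Acvr1b followed with 3.69 and Rab5b with 3.32, both with the AD hypothalamus array far above the other hypothalamus arrays (for Acvr1b -1.51 against -4.38 and -4.45, for Rab5b -1.33 against -3.66 and -3.60). Cenph had a range of 3.19, with AD hypothalamus at -2.24 against -4.34 and -4.46. Mxd1 had 3.15, with CR amygdala at -1.96 against -4.66 and -3.89. Ppm1j had 3.11, with RFR hypothalamus at -1.89 against -4.14 and -4.25. No group has the 4 arrays that a test for a single deviating array needs.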

How the results depend on the processing

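The number of genes called, 3717, stayed within 1.5 times in 12 of 12 alternatives that kept all 6 arrays, from 2515 with the 6 arrays alone to 4006 with trended, robust variances; it was 3316 with no replicate block (no diet term), 2771 with slide as a fixed term and 3736 with slide as a random block. The number called higher in hypothalamus was 1248 with the 6 arrays alone. Leaving out 1 array or pool gave 1429 to 4653 calls, 710 to 2043 higher in amygdala and 719 to 2610 higher in hypothalamus. Calls were followed for 178 called genes: the largest differences, the largest bounds and up to 5 called members per list. Of these, 133 kept the call in all 21 alternatives with a fit and 45 lost it in at least 1, 29 of them in an alternative that left out nothing. Other called genes named above, such as Sst, Cspg4 and Homer3, are not in this count. Chrna5, dim on all 6 arrays, reversed to -0.58 when dim values were raised to the floor. Over all 3717 called genes, the sign turned for 27 with dim values raised to the floor, for 26 with the mean of all probes and for 1 with normexp. Among list counts of 1 to 3, leaving out 1 array or pool could bring 5 of 9 such counts for amygdala and 10 of 13 for hypothalamus to 0. The median difference of all genes was -0.12 without the filter on dim genes. The AD and RFR pairs each lie within 1 slide and the CR pair does not, so the within-slide alternative gives values and no call. Signal over background limits genes that are dim in a region to bounds.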
